A study of Mus musculus with 9 samples.

Results

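The clustered protocadherins were followed in the adult ventral midbrain of mice with 0, 1 or 2 floxed Dot1l alleles. The rule for members used name and gene type and no measured value, but the members were chosen with earlier results of these data known. A row of the count files was a member if its Ensembl identifier belonged to a protein-coding gene whose symbol begins with Pcdha, Pcdhb or Pcdhg. This gave 57 of the 47729 rows, with 14 members in the alpha cluster, 22 in the beta cluster and 21 in the gamma cluster.

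Clustered protocadherins are cadherin-like proteins on the surface of neurons. Each neuron makes its own mixture of them, and copies of the same protein on touching membranes bind each other, so that sister branches of 1 neuron recognise and avoid one another. Most alpha and gamma members are alternate isoforms that are switched on at random in single neurons through their own promoters, with the help of the looping factor CTCF and cohesin. The last members of the alpha and gamma clusters are the C-type isoforms, which most neurons of a type use without that random choice.

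The data were RNA-sequencing counts of 9 libraries from dissected midbrain at 180 days of age. All mice carried Pitx3-Cre/+ and the reporter Rosa-lox-stop-lox-Yfp on a C57/Bl6 background, the controls included. The groups were Dot1l(+/+), with 0 floxed alleles, Dot1l(fl/+), with 1, and Dot1l(fl/fl), with 2, called the +/+ (control), fl/+ and fl/fl pools. Dot1l is the enzyme that methylates lysine 79 of histone H3. Each genotype had 3 libraries and each library pooled 3 mice, so a replicate was a pool and the spread between replicates was a spread between pools. Cre was driven from the Pitx3 locus, which in the midbrain is active in dopamine neurons, so the other cells of the dissected tissue kept their floxed alleles whole. The labels name midbrain dopamine neurons as the tissue, and the design text of the series speaks of sorted embryonic cells, but the extraction protocol gives dissected tissue at this age. Markers of several cell types were present: 10 of 10 dopamine neuron markers, 7 of 7 oligodendrocyte markers and 7 of 7 astrocyte markers passed the filter on low counts, with summed levels of 587 to 833, 10075 to 11542 and 3169 to 3868 CPM, the counts scaled by the library total and its TMM factor. In such a bulk sample, fewer cells of a type and less RNA per cell cannot be told apart.

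Library totals ran from 16422135 to 28403218 counts, and the 57 members together held 9142 to 15321 counts of a library. Dot1l itself stood at 85.2, 80.2 and 85.1 CPM in the +/+ pools, 84.2, 60.6 and 75.6 in the fl/+ pools, and 82.1, 73.9 and 82.9 in the fl/fl pools. These groups overlapped. The counts are of the whole gene and not of the deleted part, in a tissue that also holds cells without Cre, so they do not test the labels.

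All members lie on chromosome 18 of GRCm38 on the plus strand. The alpha cluster spans positions 36930184 to 37187661, the beta cluster 37264938 to 37524479, and the gamma cluster 37661793 to 37841873. A beta member is a gene of its own. An alpha or gamma member has its own large first exon, which codes for the part of the protein outside the cell, and is spliced to constant exons that the whole cluster shares and that code for the common end inside the cell. In GENCODE M21 the median alpha member had 2480 exon bases of its own, and the median gamma member 2637. For beta members the median was 3714, and only Pcdhb21 and Pcdhb22 overlapped, by 455 bases. A read from a constant exon cannot be given to 1 member.

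How the authors' counting treated such reads is not given in the sources used here, but Pcdha4 bears on it. In the annotation the first exon of Pcdha4 is also part of the read-through gene Gm42416, which leaves Pcdha4 with 494 of its 5768 exon bases unshared. Its counts were 0, 0 and 0 in the +/+ pools, 0, 1 and 0 in the fl/+ pools, and 0, 1 and 0 in the fl/fl pools, and Gm42416 stood at 0 in all 9 libraries. The 13 other alpha members had 8.89 to 733 counts in the mean over libraries. The listed level of Pcdha4 is therefore not read as its level in the tissue. Pcdha4 was the 1 member that did not pass the filter, and 56 members were tested.

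The levels within a cluster were far from even. Levels of different genes are compared here per kilobase of exon. In the +/+ pools, Pcdhgc3 was the most abundant member, at 11.4 ± 0.838 CPM per kilobase (SD, n = 3). Pcdhgc3 is a gamma C-type isoform known for branching of dendrites. It was followed by the beta member Pcdhb9 at 5.87 ± 0.689, by Pcdhac2 at 5.17 ± 0.591 and by Pcdhgc5 at 4.73 ± 0.573. Pcdhgc3 stood apart from Pcdhb9 by more than the spread of the replicates, whereas Pcdhb9, Pcdhac2 and Pcdhgc5 differed from each other by less than the sum of their SDs. Pcdhga11 at 3.82 ± 0.326, Pcdhb17 at 3.82 ± 0.287, Pcdhgc4 at 3.71 ± 0.109 and Pcdhb20 at 3.36 ± 0.297 came next, and they too differed from each other by less than the sum of their SDs.

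At the low end stood Pcdhb1, the first gene of the beta cluster, at 0.0477 ± 0.0499 CPM per kilobase, and Pcdha8, at 0.0668 ± 0.0272. Pcdha1, the first gene of the alpha cluster, reached 0.176 ± 0.0323. The lowest gamma members were Pcdhga1 at 0.834 ± 0.0332 and Pcdhgb4 at 0.837 ± 0.112, and the next-lowest beta member was Pcdhb4 at 1.04 ± 0.101. By this measure the median member stood at 0.543 CPM per kilobase in the alpha cluster, 1.82 in the beta cluster and 1.90 in the gamma cluster. The alpha median counts all 14 members, with Pcdha4 at 0.

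The order depended in part on the bases that count as a gene's length. If the counts leave out reads on shared exons, as the counts of Pcdha4 allow, the unshared bases are the length that applies, and all exon bases understate alpha and gamma members against beta members. Per kilobase of unshared exon the medians were 1.17, again with Pcdha4 counted, 1.82 and 4.00. Pcdhgc3 led again at 18.5, now followed by Pcdhac2 at 10.1 and Pcdhgc5 at 7.84, with Pcdhb9 in place 6. The rank correlation between both orders was 0.894 over 56 members in the same libraries. The genotypes kept nearly the same order: the rank correlation of the levels per kilobase was 0.992 between the +/+ pools and the fl/+ pools and 0.985 between the +/+ pools and the fl/fl pools. These correlations describe 56 genes whose levels span a wide range and which share their lengths.

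**Figure D1:**
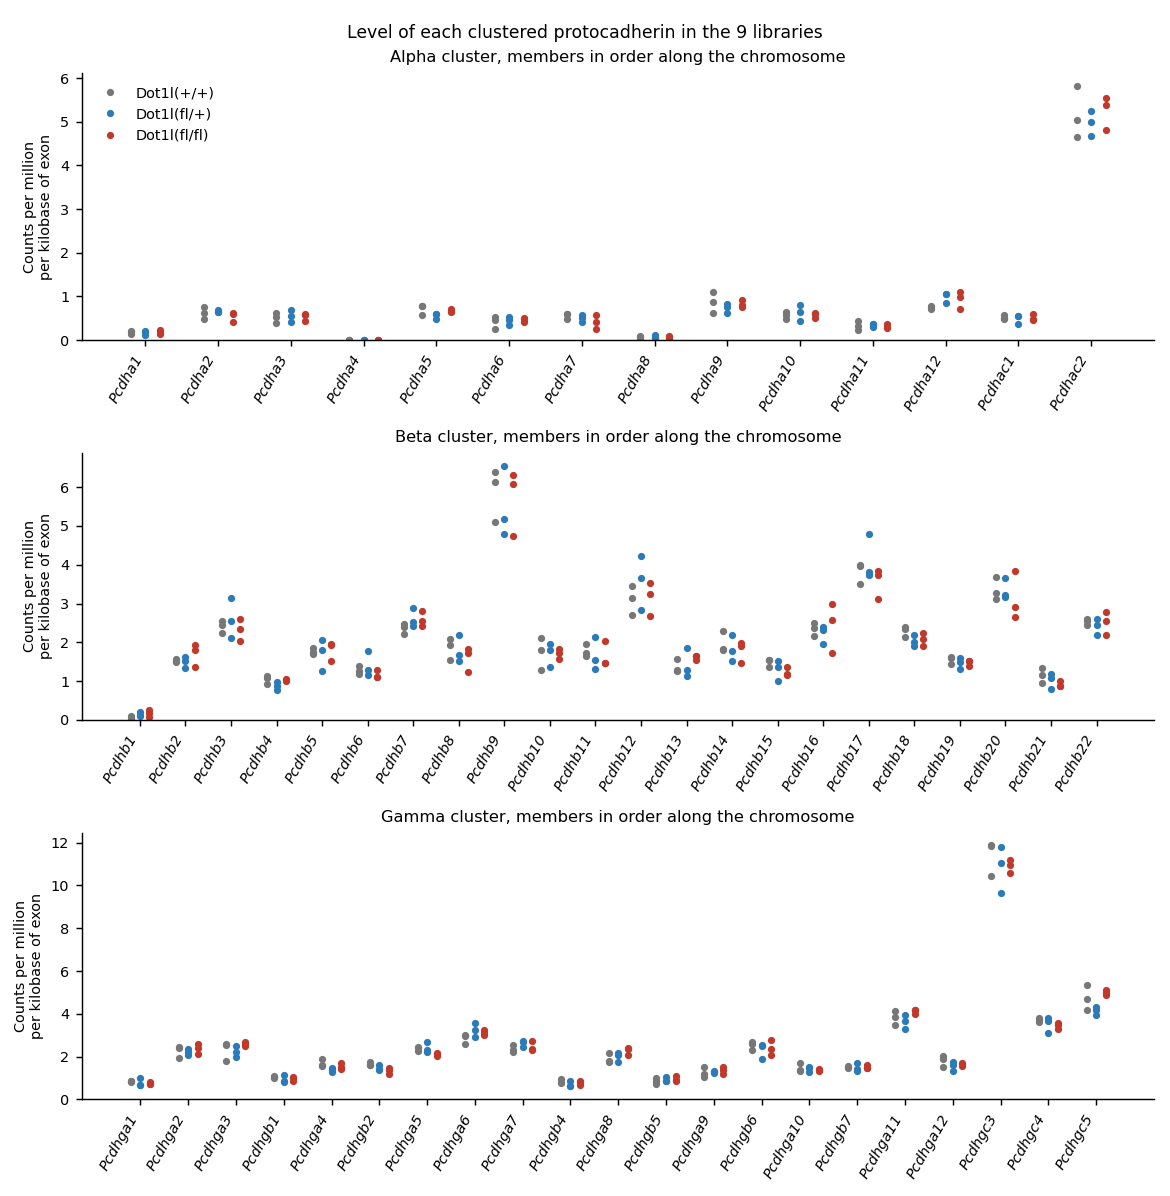
Level of each member in CPM per kilobase of exon (vertical axis, linear, a different scale for each cluster), with members in chromosomal order and 1 point per library coloured by genotype. Pcdhac2 and Pcdhgc3 tower over the other members of the alpha and gamma clusters, Pcdhb9 leads the beta cluster, and the genotypes overlap at most members.

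Roughly equal parts of the alpha counts came from the C-type isoforms and from the alternate ones. Pcdhac2, the alpha isoform on which serotonin neurons rely to space their axons, held 45.6, 47.6 and 50.1% of the alpha counts in the +/+ pools, 45.7, 46.0 and 47.7% in the fl/+ pools, and 50.4, 48.5 and 45.9% in the fl/fl pools. The 3 groups overlapped. The other C-type isoform, Pcdhac1, held 4.37 ± 0.204%, 4.26 ± 0.721% and 4.38 ± 0.610% (SD, n = 3 each). In CPM, Pcdhac2 measured 29.7, 27.4 and 34.3 in the +/+ pools, 29.4, 27.5 and 30.9 in the fl/+ pools, and 32.7, 31.8 and 28.3 in the fl/fl pools. The 5 serotonin neuron markers were low in this tissue and summed to 22.9 to 42.1 CPM over the 9 libraries, and 4 of the 5 passed the filter.

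Among the alternate alpha isoforms Pcdha9 was the most abundant in the +/+ pools, at 0.861 ± 0.239 CPM per kilobase, next to Pcdha12 at 0.744 ± 0.0325. Pcdha9 measured 4.63, 3.31 and 5.86 CPM in the +/+ pools, 4.39, 3.32 and 4.08 in the fl/+ pools, and 4.92, 4.27 and 4.00 in the fl/fl pools, which overlap throughout.

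In the gamma cluster the 3 C-type isoforms held 41.5 ± 0.262% of the counts in the +/+ pools, 40.3 ± 0.997% in the fl/+ pools and 40.9 ± 0.481% in the fl/fl pools (SD, n = 3 each). The single libraries were at 41.8, 41.3 and 41.4% in the +/+ pools, 40.7, 39.2 and 41.1% in the fl/+ pools, and 41.4, 40.4 and 41.0% in the fl/fl pools. The fl/+ pools all lay below the controls, and the fl/fl pools overlapped with the controls. With counts per kilobase of exon the shares were 37.2 ± 0.270, 36.1 ± 1.14 and 36.4 ± 0.532%, and on that scale all fl/fl pools lay below the controls as well. The 12 A-type isoforms held 43.2 ± 0.460, 44.8 ± 1.65 and 44.5 ± 1.14% in the same order of genotypes, and the 6 B-type isoforms 15.3 ± 0.627, 14.9 ± 0.699 and 14.6 ± 0.966%.

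Pcdhgc3 alone made up 21.8 ± 0.572% of the gamma counts in the +/+ pools, 21.6 ± 1.12% in the fl/+ pools and 20.9 ± 0.493% in the fl/fl pools. Its level was 65.1, 57.3 and 65.5 CPM, then 60.9, 53.1 and 64.8, then 61.5, 58.2 and 60.2 in these genotypes. Pcdhgc4, the isoform that cortical interneurons need to survive, measured 20.7, 21.4 and 20.2 CPM in the +/+ pools, 20.6, 17.3 and 21.2 in the fl/+ pools, and 20.0, 18.5 and 19.4 in the fl/fl pools. The fl/fl values of Pcdhgc4 were all below the controls, yet with a log2 fold change of -0.11 ± 0.09 (SE, edgeR, unadjusted p = 0.260).

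**Figure D2:**
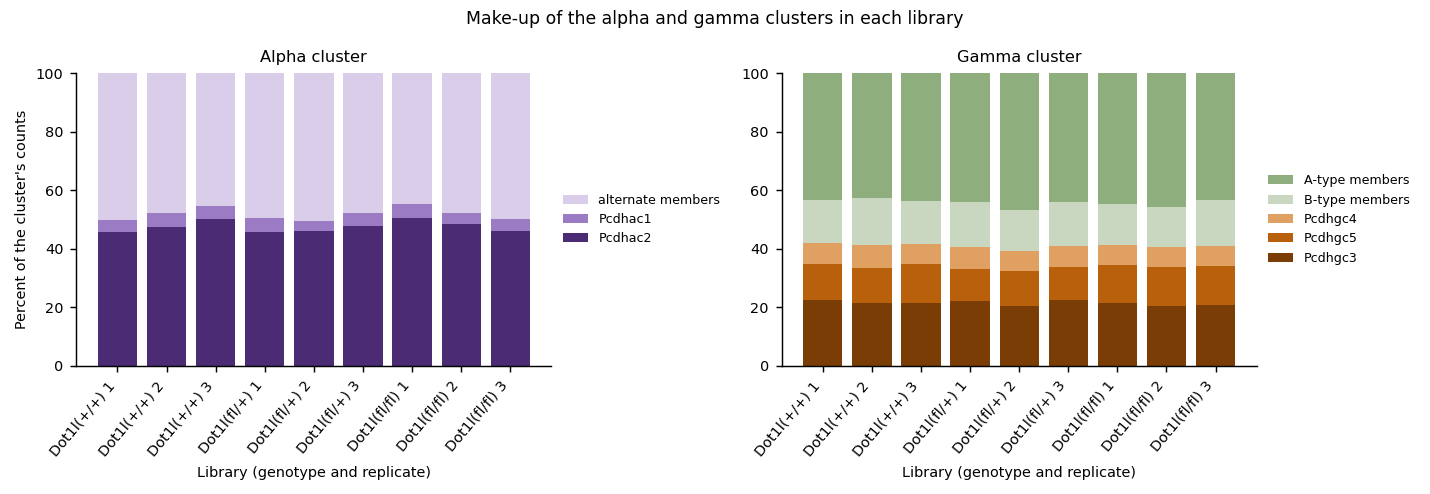
Make-up of the alpha cluster (left) and the gamma cluster (right) as percent of the cluster's counts in each library, with stacked bars for the C-type isoforms and the summed alternate isoforms. The C-type share of the gamma cluster runs from 39.2% in fl/+ pool 2 to 41.8% in +/+ pool 1, and Pcdhac2 takes 45.6 to 50.4% of the alpha cluster.

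The beta cluster had no such leader. The 3 members with the highest CPM in the +/+ pools, Pcdhb9, Pcdhb17 and Pcdhb14, together held 26.9 ± 1.83% of the beta counts in the +/+ pools, 26.8 ± 0.866% in the fl/+ pools and 26.1 ± 0.567% in the fl/fl pools. Pcdhb9 measured 15.6, 19.5 and 18.7 CPM in the +/+ pools, 14.7, 20.0 and 15.8 in the fl/+ pools, and 14.5, 19.3 and 18.6 in the fl/fl pools. In each genotype pool 1 was the lowest and pool 2 the highest for Pcdhb9. In the median beta member 4.46% of the 50-base words were found in the exons of another gene, so that a small part of the reads of these close relatives may have been placed on the wrong member or dropped.

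The question put to the genotypes was whether losing 1 or 2 Dot1l alleles in the Pitx3 lineage moved the clusters in the dissected tissue. The paper states that floxed neurons were only part of that tissue, which limits the effect size for ubiquitously transcribed genes. A change confined to those neurons may therefore go unseen here. The summed levels of the genotypes overlapped in every cluster. The alpha members summed to 65.2, 57.7 and 68.3 CPM in the +/+ pools, 64.3, 59.7 and 64.7 in the fl/+ pools, and 64.9, 65.5 and 61.6 in the fl/fl pools. The beta members summed to 190.7, 199.4 and 199.3 CPM, then 182.3, 220.6 and 176.2, then 164.6, 200.6 and 203.8, with pool 1 below pool 2 in each genotype. The gamma members summed to 290.4, 267.9 and 304.9 CPM, then 274.4, 261.0 and 289.5, then 286.8, 283.9 and 289.1. Each fl/+ pool lay below the +/+ pool of the same number in this sum. Whether the numbers mark matched sets is not known. The ratios of the genotype means to the control mean were 0.987 and 1.00 for alpha, 0.983 and 0.965 for beta, and 0.956 and 0.996 for gamma, for the fl/+ pools and the fl/fl pools respectively.

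**Figure D3:**
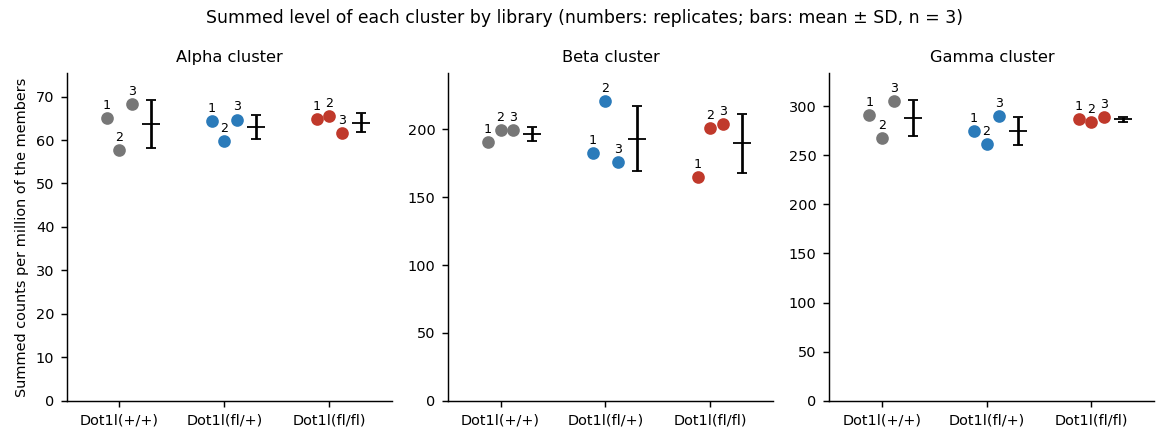
Summed CPM of the members of each cluster (vertical axes from 0) in the 9 libraries, numbered by replicate, with the mean and SD of each genotype beside them (n = 3). The genotypes overlap in all 3 clusters, and the beta cluster spreads from 164.6 in fl/fl pool 1 to 220.6 in fl/+ pool 2.

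The test across all 17671 genes that passed the filter was edgeR's quasi-likelihood test with Benjamini-Hochberg adjustment. With 1 floxed allele, 0 genes passed an adjusted p of 0.05 in edgeR, 1483 passed an unadjusted p of 0.05, and DESeq2 on the same 9 libraries called 7 at an adjusted p of 0.05. With 2 floxed alleles edgeR called 0, 694 passed the unadjusted threshold, and DESeq2 called 4. None of these adjusted calls by DESeq2 was a clustered protocadherin, whose smallest adjusted p there was 0.575 with 1 floxed allele and 1.00 with 2. The unadjusted threshold is therefore used as a description, beside the share of all genes past it.

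Between the fl/+ pools and the +/+ pools, 3 of 56 members passed the unadjusted p of 0.05, or 5.36%, against 8.39% of all genes tested (4.3% higher and 4.09% lower). The alpha member Pcdha12 was higher, and the gamma members Pcdhga4 and Pcdhgc5 were lower. For non-overlapping libraries the members' share was 3.57%, against 13.3% of all genes (6.84% higher and 6.47% lower): Pcdha12 was higher and Pcdhga4 lower in all 3 fl/+ pools. The median log2 fold change was 0.089 for the 13 alpha members tested, -0.046 for the 22 beta members and -0.072 for the 21 gamma members, beside -0.0034 for all genes. The alpha median fell below 0, to -0.041, -0.063 and -0.059, without +/+ pool 2, fl/+ pool 1 or fl/+ pool 3, and the beta median reached 0.015 with 1 library left out. The median standard error of a single member was 0.21, 0.15 and 0.12 in the 3 clusters. In the beta cluster 7 members lay above 0 and 15 below, in the gamma cluster 6 above and 15 below, and in the alpha cluster 7 above and 6 below, while 48.9% of all genes lay above 0.

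Pcdha12 is the last of the alternate alpha isoforms. It measured 4.11, 3.78 and 4.02 CPM in the +/+ pools, 5.64, 5.58 and 4.58 in the fl/+ pools, and 5.32, 5.93 and 3.76 in the fl/fl pools. All 3 fl/+ pools were above the controls, and 2 of the 3 fl/fl pools were. The log2 fold change was 0.41 ± 0.16 with 1 floxed allele (SE, edgeR unadjusted p = 0.0263, adjusted p = 0.551) and 0.35 ± 0.17 with 2 (unadjusted p = 0.0540). The first difference kept an unadjusted p under 0.05 in 5 of 9 fits that each left out 1 library, and its p reached 0.0792 without fl/+ pool 1, 0.0692 without +/+ pool 2, 0.0647 without fl/+ pool 2 and 0.0507 without +/+ pool 3.

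Pcdhga4, an A-type gamma isoform, measured 7.57, 7.39 and 9.02 CPM in the +/+ pools, 7.05, 5.97 and 6.49 in the fl/+ pools, and 6.80, 7.20 and 8.01 in the fl/fl pools. The 3 fl/+ pools all lay below the controls, fl/fl pool 1 fell among them, and the log2 fold change was -0.30 ± 0.12 (SE, edgeR unadjusted p = 0.0270, adjusted p = 0.554). It had an unadjusted p of 0.149 without +/+ pool 3, 0.0874 without fl/+ pool 2 and 0.0517 without fl/+ pool 3. Only 1570 of its 4727 exon bases are unshared.

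Pcdhgc5, a C-type gamma isoform that is made late in development and binds GABA receptors, had the smallest unadjusted p of the 56 members in the 3 comparisons. It measured 35.7, 32.0 and 40.7 CPM in the +/+ pools, 30.2, 31.8 and 32.9 in the fl/+ pools, and 37.1, 38.1 and 38.9 in the fl/fl pools. The fl/+ and fl/fl pools did not overlap, and the controls spread over both. The log2 fold change was -0.19 ± 0.08 with 1 floxed allele (SE, edgeR unadjusted p = 0.0348, adjusted p = 0.568) and 0.07 ± 0.08 with 2 (unadjusted p = 0.392). Between the fl/fl pools and the fl/+ pools it was 0.27 ± 0.08 (unadjusted p = 0.00639, adjusted p = 0.641). Without +/+ pool 3 the difference between the fl/+ pools and the controls shrank to -0.09, with an unadjusted p of 0.239, and without fl/+ pool 1 or +/+ pool 1 the p was 0.108 or 0.0562. The difference between the fl/fl pools and the fl/+ pools kept an unadjusted p under 0.05 in 9 of 9 such fits, with a highest p of 0.0266. As a share of the gamma counts Pcdhgc5 took 12.5 ± 0.731, 11.5 ± 0.609 and 13.3 ± 0.276% in the 3 genotypes.

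Between the fl/fl pools and the +/+ pools, 2 of 56 members passed the unadjusted threshold, or 3.57%, against 3.93% of all genes (2.21% higher and 1.72% lower). Pcdhb1 was higher and Pcdhgb2 was lower. The median log2 fold change was -0.0062 for alpha, -0.053 for beta and -0.063 for gamma members, beside 0.00090 for all genes. The beta median was 0.013 without fl/fl pool 1 and the gamma median 0.022 without +/+ pool 3. In 5 members, or 8.93%, the libraries of both genotypes did not overlap, against 10.3% of all genes (5.03% higher and 5.25% lower). All 5 were lower in the fl/fl pools: Pcdhb15, Pcdhga1, Pcdhgb2, Pcdhga5 and Pcdhgc4.

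Pcdhgb2, a B-type gamma isoform, measured 7.94, 7.86 and 8.53 CPM in the +/+ pools, 6.74, 6.85 and 7.97 in the fl/+ pools, and 6.76, 5.85 and 7.22 in the fl/fl pools. The fl/fl pools all lay below the controls, and the fl/+ pools overlapped with both. The log2 fold change was -0.30 ± 0.12 with 2 floxed alleles (SE, edgeR unadjusted p = 0.0241, adjusted p = 0.999) and -0.18 ± 0.12 with 1 (unadjusted p = 0.155). Its unadjusted p was 0.121 without fl/fl pool 2 and 0.0779 without +/+ pool 3.

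Pcdhb1 is barely present in this tissue. Its raw counts were 0, 6 and 3 in the +/+ pools, 6, 10 and 14 in the fl/+ pools, and 5, 17 and 7 in the fl/fl pools. The library with 0 counts allows a level of up to 0.143 CPM (3 counts, counting error only), and the groups overlapped. The fitted log2 fold change was 1.74 ± 0.72 with 2 floxed alleles (SE, edgeR unadjusted p = 0.0300, adjusted p = 0.999) and 1.53 ± 0.71 with 1 (unadjusted p = 0.0512), and with a library at 0 its size is no bound. Its unadjusted p for 2 floxed alleles was 0.179 without fl/fl pool 2, 0.0892 without +/+ pool 1 and 0.0775 without +/+ pool 3.

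**Figure D4:**
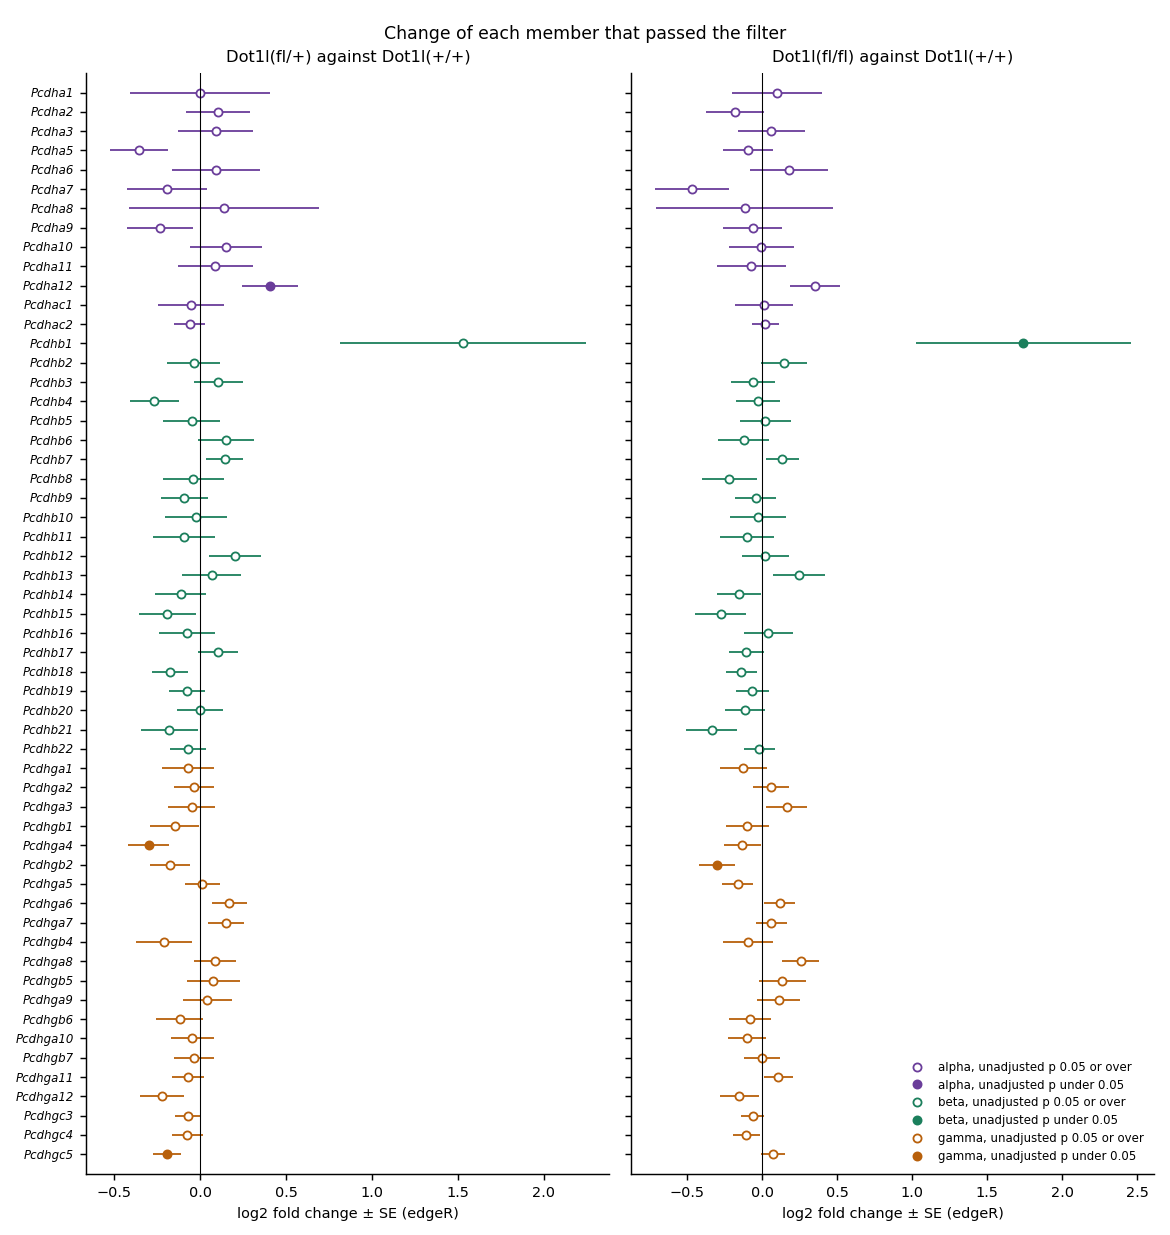
Log2 fold change with its standard error (horizontal bars, edgeR, 3 libraries a genotype) of the 56 members that passed the filter, in chromosomal order, for the fl/+ pools on the left and the fl/fl pools on the right against the +/+ pools. Filled points passed an unadjusted p of 0.05 (3 on the left, 2 on the right), and apart from Pcdhb1 every member lies between -0.47 and 0.41.

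Both comparisons use the same 3 control libraries, so members that lean the same way in both are not 2 separate results. Between the fl/fl pools and the fl/+ pools, which share no library, 1 of 56 members passed the unadjusted threshold, or 1.79%, against 6.48% of all genes (3.6% higher and 2.87% lower), and this was Pcdhgc5. In 6 members, or 10.7%, the libraries of both genotypes did not overlap, against 11.1% of all genes (5.98% higher and 5.14% lower): Pcdha5, Pcdhb4, Pcdhga11 and Pcdhgc5 were higher in the fl/fl pools, and Pcdha2 and Pcdhga5 were lower. The medians were -0.029 for alpha, -0.0055 for beta and 0.051 for gamma members, beside 0.0015 for all genes, and each changed sign when certain single libraries were left out, with ranges of -0.095 to 0.087, -0.087 to 0.099 and -0.015 to 0.074.

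In the +/+ pools the median coefficient of variation was 18.3% in the alpha cluster, 8.88% in the beta cluster and 8.53% in the gamma cluster, where counting alone gives a median of 11.9, 7.23 and 6.29%. The order of the clusters was not the same in every genotype: these medians were 15.8, 18.03 and 10.2% in the fl/+ pools and 14.7, 12.1 and 6.01% in the fl/fl pools. The median log2 level of a cluster varied least for alpha, with a mean SD within genotypes of 0.069, against 0.17 for beta and 0.14 for gamma. That order depended on the measure. Relative to its mean, the summed level varied most for alpha in the +/+ pools (63.7 ± 5.48 CPM, beta 196 ± 5.01, gamma 288 ± 18.7). It varied least for alpha in the fl/+ pools (62.9 ± 2.78, beta 193 ± 24.1, gamma 275 ± 14.3). In the fl/fl pools it varied least for gamma (287 ± 2.64, alpha 64.0 ± 2.12, beta 190 ± 21.8). The 14 alpha members had a median of 68.3 counts per library, beta members 199 and gamma members 260.

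Many beta members were high or low in the same libraries, and in part this followed the replicate number across genotypes: the median beta member was lower in pool 1 than in pool 2 of each genotype. Each member was set against its own mean over the 9 libraries on the log2 scale of the CPM plus 0.05, and the median beta member lay 0.21 above it in fl/+ pool 2 and 0.21 below it in fl/fl pool 1. In the other 7 libraries this median lay between -0.11 and 0.077. The fl/+ pool 2 held the highest of the 9 values for 10 of 22 beta members, and was the highest for 16.9% of all genes tested. The fl/fl pool 1 held the lowest value for 10 of 22 beta members, and was the lowest for 9.82% of all genes. For example, Pcdhb17 measured 22.3 CPM in fl/+ pool 2, 14.6 in fl/fl pool 1 and 16.3 to 18.6 in the other 7.

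The other clusters did not share the high beta levels of fl/+ pool 2 throughout. The median deviation there was -0.051 for the alpha members, with 0.053 for the alternate isoforms and -0.27 for the 2 C-type isoforms. For the gamma members it was -0.099, with -0.013 for the A-type, -0.17 for the B-type and -0.19 for the 3 C-type isoforms. This pool was the lowest library for 1 of 13 alpha members and 7 of 21 gamma members, against 17.5% of all genes. Beta members had a lower GC content, with a median of 46.0%, than gamma members, with 53.1%, and longer unshared stretches. With the length and GC trend of each library removed, a setting chosen after seeing the data, the beta median was 0.22 in fl/+ pool 2 and -0.20 in fl/fl pool 1, while in fl/+ pool 2 the median was 0.089 for the alternate alpha, 0.021 for the gamma A-type and -0.051 for all gamma members. The 7 general neuron markers summed to 5966 CPM in fl/+ pool 2, the lowest of the 9 libraries, and to 6674 in fl/fl pool 1, the highest, which is the opposite order to that of the beta members. Their part in the beta levels was not tested.

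**Figure D5:**
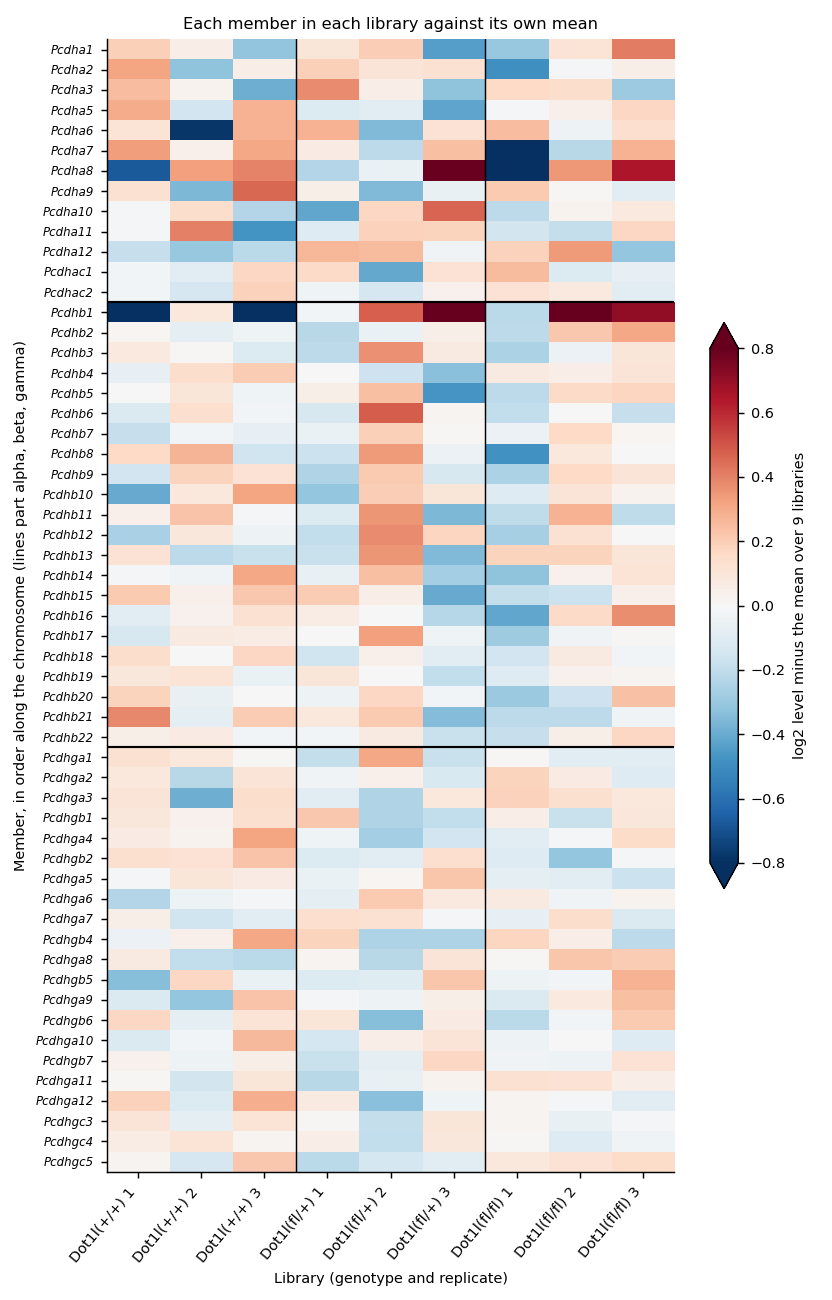
Log2 level of each of the 56 members tested minus its mean over the 9 libraries (colour, red above and blue below, values past 0.8 at the end colours), with members in chromosomal order down the side and libraries across. Most of the beta block is red in fl/+ pool 2, with a median of 0.21, and blue in fl/fl pool 1, with a median of -0.21, while the alternate alpha members and Pcdhb1, with few counts, vary from library to library.

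Genes that act on or with the clustered protocadherins are counted here at the unadjusted threshold, which 8.39% of all genes passed with 1 floxed allele and 3.93% with 2. Of 13 genes of chromatin looping and cohesin, 0 were higher and 2 lower with 1 floxed allele, namely the cohesin loader Nipbl (log2 fold change -0.13 ± 0.05) and the cohesin subunit Smc3 (-0.11 ± 0.05), and 0 of 13 passed with 2. These 2 changes depended on the processing. Under the alternatives, apart from leaving out a library, they ranged from -0.13 to -0.053 for Nipbl and from -0.11 to -0.037 for Smc3. Ctcf itself stood at 78.9 ± 2.91, 76.6 ± 1.16 and 80.0 ± 1.60 CPM (SD, n = 3 each) in the +/+ pools, the fl/+ pools and the fl/fl pools. Of 12 silencing and DNA methylation genes, 0 were higher and 2 lower in each comparison with the controls. Tet2 (-0.24 ± 0.08) and Atf7ip (-0.13 ± 0.05) were lower with 1 floxed allele, and those lower with 2 included Tet3 (-0.19 ± 0.07) (SE, n = 3). The Tet enzymes oxidise methylated cytosine, and Atf7ip serves a silencing methyltransferase. None of these genes passed an adjusted p of 0.05.

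Of 19 binding partners and signalling genes, 0 were higher and 2 lower with 1 floxed allele, and 2 were higher and 1 lower with 2. Ret (-0.17 ± 0.07) and Abi2 (-0.13 ± 0.06) were lower with 1 floxed allele. Under the same alternatives the change of Abi2 ranged from -0.13 to -0.051, and that of Ret from -0.17 to -0.15. With 2 floxed alleles the kinase gene Ptk2b (0.26 ± 0.07) and the actin regulator Wasf1 (0.15 ± 0.07) were higher, and Ret (-0.24 ± 0.07) was lower. Ret, the GDNF receptor, is also a dopamine neuron marker.

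The protocadherins outside the clusters are single genes with no shared constant exons. Of 12 such genes, 0 were higher and 3 lower at the unadjusted threshold in each comparison with the controls, where 4.09% of all genes were lower with 1 floxed allele and 1.72% with 2. With 1 floxed allele these were Pcdh8 (-0.19 ± 0.07), Pcdh9 (-0.11 ± 0.05) and Pcdh19 (-0.18 ± 0.07), and with 2 they were Pcdh7 (-0.16 ± 0.05), Pcdh10 (-0.11 ± 0.05) and Pcdh15 (-0.17 ± 0.08). Their median log2 fold change was -0.10 with 1 floxed allele and -0.097 with 2. Of 9 Flamingo, Fat and Dachsous cadherins 0 passed in either comparison, with medians of -0.078 and -0.14.

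Most neighbours of the clusters did not pass the threshold. Of 21 flanking genes found, 1 was higher and 0 lower with 1 floxed allele, and 1 was higher and 1 lower with 2. Ndufa2, a gene of respiratory complex I beside the alpha cluster, measured 14.0 to 15.3 CPM in the +/+ pools, 18.8 to 23.9 in the fl/+ pools and 16.6 to 22.6 in the fl/fl pools. Both groups lay above the controls in every library, with log2 fold changes of 0.55 ± 0.13 (SE, edgeR adjusted p = 0.540) and 0.36 ± 0.13 (adjusted p = 0.999). Fchsd1 beyond the gamma cluster was lower with 2 floxed alleles (-0.24 ± 0.10). Taf7, which lies between the beta and gamma clusters, stood at 14.6 ± 1.56, 14.5 ± 1.60 and 14.5 ± 0.605 CPM.

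Markers of some other cell types differed between genotypes. Of 10 dopamine neuron markers, 0 were higher and 4 lower with 1 floxed allele, and 0 were higher and 8 lower with 2, at the unadjusted threshold. Their sum was 744 to 833 CPM in the +/+ pools, 600 to 749 in the fl/+ pools and 587 to 618 in the fl/fl pools, and Slc6a3, the dopamine transporter, had the log2 fold changes -0.26 ± 0.09 and -0.68 ± 0.09 (SE, edgeR adjusted p = 0.541 and 0.0906). Of 6 choroid plexus markers, 5 were higher with 1 floxed allele and 3 lower with 2, and their sum was 73.3 to 165, 128 to 613 and 44.8 to 53.9 CPM. Without fl/+ pool 3 the log2 fold change with 1 floxed allele went from 1.46 to 0.31 for Ttr, from 1.19 to 0.39 for Folr1 and from 0.94 to 0.40 for Clic6. The highest sum, 613, was that of this pool, whose beta and gamma members summed to 176.2 and 289.5 CPM. At this threshold 0 of 7 general neuron markers, 0 of 3 GABA neuron markers, 0 of 3 glutamate neuron markers, 0 of 7 endothelial and mural markers and 0 of 4 serotonin neuron markers passed against the controls. Of the remaining lists, against the controls, 2 of 7 oligodendrocyte markers were higher with 1 floxed allele, 1 of 7 astrocyte markers was higher and 1 lower, 1 of 7 microglia markers was higher with 1 and with 2 floxed alleles, and 1 of 6 meningeal markers was lower with 1. Between the fl/fl pools and the fl/+ pools, 5 of 10 dopamine neuron markers, 6 of 6 choroid plexus markers and 3 of 7 oligodendrocyte markers were lower. The part of these cell types in the protocadherin levels was not tested.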

How the data were processed

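RNA of dissected ventral midbrain, pooled from 3 mice a library, was made into directional libraries and sequenced by the authors on an Illumina NextSeq. The authors' reads were mapped to GRCm38.p4 and deposited as raw counts per Ensembl gene. The submitters' processing notes name bcl2fastq 2.17, Trimmomatic 0.30 and DESeq2 1.10.1; the aligner and counter are not given in the sources used here. The deposited comparisons (fold changes and p-values of the authors) were not used.

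Identifiers were named with GENCODE M21, in which 2 identifiers carry the symbol Pcdha11; the first in chromosomal order was called Pcdha10 after RefSeq. Pcdhgb8 is no protein-coding gene there and was left out. Genes were kept with filterByExpr (17671), and all 9 libraries were fitted with genotype as the only factor, using TMM and the quasi-likelihood test of edgeR 4.0.16 in R 4.3.3 with Benjamini-Hochberg adjustment. The common biological coefficient of variation was 8.81%, and replicates differed by 4.34 to 16.3 times the counting variance (chi-square per degree of freedom). Replicates are pools, so p-values measure the spread between pools. In simulated data with 1 common spread, 200 genes were changed in the fl/fl pools. At an adjusted p of 0.05 the fit recovered 54.5% of changes of 0.5 on the log2 scale and 91.5% of changes of 1. Alternatives were DESeq2 1.42.0, other filters and size factors, a fit of 2 groups, the replicate number as a block, a length and GC offset, and leaving out each library. Files were read with Python 3.11.15, pandas 2.3.3 and numpy 2.4.6, and figures drawn with matplotlib 3.10.9. Named genes were Dot1l, the C-type members and Pcdhb1, the 3 highest and 2 lowest members of each cluster per kilobase, members with an unadjusted p under 0.05, and up to 4 such genes of each other list. Others were named after their values were seen. The members and lists were chosen with earlier results of these data known. The result of 1 listed gene is not reported here.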

Additional observations from a re-analysis of the deposited data

How the results depend on the processing

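As reported, no gene passed an adjusted p of 0.05, and 0 members passed it under any alternative run. At the unadjusted p of 0.05, apart from the fits with a library left out, Pcdhga4 and Pcdhgc5 kept their difference between the fl/+ pools and the controls in 7 of 9 alternatives each, and Pcdhgb2 kept its difference between the fl/fl pools and the controls in 8 of 9. Of 2720 values of the 51 named genes under the alternatives, 68 passed an adjusted p of 0.05.

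Genes past an adjusted p of 0.05, 0 as reported in each comparison, numbered 7, 4 and 12 in DESeq2 on 9 libraries, 46, 9 and 12 in DESeq2 on 2 groups, and 251, 118 and 164 without a filter, for the fl/+ pools and the fl/fl pools against controls and for the fl/fl pools against the fl/+ pools. The fit of 2 groups gave 1 and 4 against controls. Leaving out a library gave 0 to 5, 0 to 4 and 0 to 12. At an unadjusted p of 0.05 the counts moved to 942 in the fl/+ pools (DESeq2 on 2 groups), to 450 (DESeq2 on 9 libraries) and 1210 (no filter) in the fl/fl pools, and to 617 (DESeq2 on 2 groups) and 1795 (no filter) between both. They ranged from 976 to 2235, 382 to 942 and 876 to 1752 with a library left out.

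Members higher in the fl/+ pools, 1 as reported, were 2 without a filter, with the replicate block and with the block and the length and GC offset. Members lower, 2 as reported, were 1 in DESeq2 on 9 libraries and in the fit of 2 groups, and 0 in DESeq2 on 2 groups. Members higher in the fl/fl pools, 1 as reported, were 0 in DESeq2 on 2 groups and with 10 counts in every library, 3 without a filter and 2 with the offset. Members lower, 1 as reported, were 0 in DESeq2 on 2 groups, 2 in the fit of 2 groups and 3 without a filter. Members lower in the fl/fl pools than in the fl/+ pools, 0 as reported, were 1 without a filter, with the block, with the offset and with both. With a library left out these counts ran from 0 to 3 higher and 0 to 5 lower, 0 to 2 and 0 to 3, and 1 to 3 and 0 to 2. The causes were not tested.

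Median log2 fold changes ranged, with a library left out, from -0.063 to 0.096 for alpha members in the fl/+ pools and from -0.095 to 0.087 between the fl/fl pools and the fl/+ pools. The alpha median in the fl/+ pools was -0.041 without +/+ pool 2, -0.063 without fl/+ pool 1 and -0.059 without fl/+ pool 3, and between the fl/fl pools and the fl/+ pools it was 0.087 without fl/+ pool 1, 0.053 without fl/+ pool 3 and 0.076 without fl/fl pool 3. The beta median ran from -0.13 to 0.015 in the fl/+ pools and from -0.089 to 0.013 in the fl/fl pools, and the gamma median from -0.13 to -0.0095 and from -0.081 to 0.022, with values above 0 for beta without fl/+ pool 1 or pool 3 and without fl/fl pool 1, and for gamma without +/+ pool 3. Between the fl/fl pools and the fl/+ pools the beta median ran from -0.087 to 0.099 and the gamma median from -0.015 to 0.074. The beta median per kilobase ranged from 1.73 to 1.88. Per unshared kilobase the alpha and gamma medians were 1.17 and 4.00. Per kilobase of exon the C-type share of the gamma cluster was 37.2%, that of Pcdhgc5 8.86% and that of the A-type isoforms 46.9%, and Pcdhb9, Pcdhb17 and Pcdhb14 together held 25.0% of the beta cluster.

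Same-numbered libraries correlated at 0.022 to 0.317 in their deviations from the group means, over 0.1 in 6 of 9 pairs, and 6 of 9 libraries correlated best with their own number. The methods describe matched littermates in the pools but do not tie them to the numbers, so the numbers were not taken to pair the libraries. Under the replicate block 3 genes passed an adjusted p of 0.05 in the fl/fl pools, with or without the offset, and 3 or 4 between the fl/fl pools and the fl/+ pools.

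Depth limits the low members: 3 counts correspond to 0.106 to 0.183 CPM, and the standard error of single alpha members reached 0.55 on the log2 scale with 1 floxed allele.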

Other observations

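The 912 kilobases from the first alpha to the last gamma member held 28 other rows of the count files, 15 of them on the minus strand. Of these 28 rows, 6 passed the filter on low counts and 6 were at 0 in all 9 libraries. Antisense RNA from first exons is part of how an alternate alpha promoter is chosen in single neurons, and the rows annotated as antisense were all low. BC037039, antisense over the start of Pcdhgc3, had the most, with 143 counts over the 9 libraries, and measured 0.712 ± 0.179 CPM in the +/+ pools, 0.709 ± 0.101 in the fl/+ pools and 0.541 ± 0.118 in the fl/fl pools (SD, n = 3 each).

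Gm26672, a processed transcript on the minus strand within the gamma cluster, had 34, 38 and 40 counts in the +/+ pools, 35, 25 and 28 in the fl/+ pools, and 35, 40 and 30 in the fl/fl pools. At 1.58 ± 0.0686, 1.11 ± 0.246 and 1.60 ± 0.211 CPM (SD, n = 3 each), its log2 fold change was -0.51 ± 0.23 between the fl/+ pools and the controls (SE, edgeR unadjusted p = 0.0422, adjusted p = 0.574) and 0.52 ± 0.23 between the fl/fl and fl/+ pools (unadjusted p = 0.0415, adjusted p = 0.761). The read-through genes Gm37013 and Gm37388, which run from the alpha into the gamma cluster, stood at 0 counts in every library, as Gm42416 did. Whether the authors' counting used strand is not given in the sources used here, and without strand a gene and its antisense partner cannot be told apart. These genes were named after their values were seen.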
